A study of Mus musculus with 55 samples.

Results

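This comparison asked what an islet transcriptome looked like when mice carried 1 altered copy of Eed rather than none, at 25 weeks of age. Its members were chosen by label: 2 libraries of islets from Eed heterozygous mice and 3 from wild-type mice, which is 5 of the 16 bulk RNA-seq libraries in the series and 5 of its 55 samples. The study removed Eed from pancreatic β cells of C57B6/J mice with a RIP-cre transgene, a Cre recombinase driven by the rat insulin promoter, and a floxed Eed allele. Mice with both alleles floxed and the Cre are called βEedKO. Libraries of wild-type, heterozygous and βEedKO islets at 8 weeks (3 of each) and of βEedKO islets at 25 weeks (2) are used below only to set the 5 libraries in context.

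In the cross that gave βEedKO mice, between Eed flox/flox mice and Eed +/flox mice with the Cre, every littermate carries at least 1 floxed allele. The labels give only heterozygous or wild type, and neither they nor the methods say whether the sequenced heterozygous and wild-type mice came from that cross or carried the Cre. The source was whole islet, isolated with collagenase, hand picked and kept in culture. Every library therefore mixed β cells with other endocrine, vascular, immune and exocrine cells, and fewer cells of a type cannot be told apart from less RNA per cell. Replicates were biological, with islets of 1 or 2 animals in each, and the βEedKO libraries at 25 weeks pooled at least 4 animals each.

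Eed is the subunit of Polycomb Repressive Complex 2 (PRC2) that binds trimethylated lysine 27 of histone H3 (H3K27me3) and that the methyltransferase subunits Ezh1 and Ezh2 need for activity. PRC2 deposits H3K27me3, a mark of silenced genes, and is opposed by trithorax proteins, which place H3K4me3 at active start sites. Start sites that carry both marks are called bivalent and belong largely to developmental regulators that a differentiated cell keeps silent. A gene is haploinsufficient when a single working copy does not give the normal phenotype.

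Levels below are CPM, counts scaled to library size with TMM factors, a measure of relative abundance that does not correct for gene length. A gene was called when its adjusted p was under 0.05 in edgeR's quasi-likelihood test with Benjamini-Hochberg adjustment over 18828 genes, fitted on all 16 libraries. The total count was 16433059 and 16812934 in the heterozygous libraries and 4645393, 11854558 and 15004056 in wild-type replicates 2, 3 and 4. Wild-type replicate 2 was the shallowest library and stood apart from the other wild-type libraries: its summed immediate-early genes were at 1855 CPM against 9837 to 16250 CPM in the other 4 libraries. Its summed lymphocyte markers were at 499 CPM against 21.1 to 79.3 CPM in the same 4 libraries. Ins1, Ins2 and Gcg, which encode insulin and glucagon, together held 16.8% and 19.4% of the counts in heterozygous libraries and 10.1% to 19.3% in wild-type libraries, so all 5 libraries carried the defining endocrine transcripts.

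No single gene passed the test between heterozygous and wild-type islets. Of 18828 genes, 0 (0%) were called in edgeR's quasi-likelihood test with Benjamini-Hochberg adjustment, while 210 (1.12%) had an unadjusted p under 0.05, 73 (0.388%) higher and 137 (0.728%) lower in heterozygous islets. DESeq2's Wald test called 3 genes and limma voom with sample weights, chosen after seeing the data, called 5. Without wild-type replicate 2, 0 were called and 137 had an unadjusted p under 0.05. Since 1.12% of all genes had such a p with all 16 libraries, a count of 0 in a short list below says little by itself. In the same fit, with the same wild-type libraries, βEedKO islets differed from wild type in 1692 genes (8.99%), of which 1112 (5.91%) rose and 580 (3.08%) fell.

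The absence of calls has a limit set by the number of libraries and by the spread, which was estimated over all 16 libraries. Where no gene differs, a share of about 0.05 would have an unadjusted p under 0.05. The share here, 1.12%, was below that, so the test was cautious, and the reason was not tested. The 95% interval of the log2 fold change lay within 1 of zero on either side for 41.5% of all genes, and it stayed under a doubling for 55.7%. The 199 genes with a fold change of exactly 0 have no interval and were counted as not within it. Between 2 and 3 libraries, 8.91% of all genes had both heterozygous values above every wild-type value and 7.06% had both below, and these shares are the background against which gene groups are read. Correlations of log2(CPM + 1) over genes, which are not independent replicates, were 0.948 to 0.994 between heterozygous and wild-type libraries, 0.948 to 0.988 among wild-type libraries and 0.898 to 0.912 between heterozygous and βEedKO libraries.

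Eed itself was lower in heterozygous islets. Its level was 16.3 and 16.9 CPM in the heterozygous libraries and 28.3, 22.0 and 19.3 CPM in wild-type replicates 2, 3 and 4. Both heterozygous values lay below every wild-type value. The mean was 16.6 ± 0.407 CPM (SD, n = 2) against 23.2 ± 4.66 CPM (SD, n = 3), a log2 fold change of -0.47 with SE 0.21 and a 95% interval of -0.92 to -0.03. This corresponds to 0.72 of the wild-type level. Eed did not pass edgeR's quasi-likelihood test after Benjamini-Hochberg adjustment (adjusted p = 1), and its unadjusted p was 0.0391 in that model. The difference leaned on the shallow wild-type library: without wild-type replicate 2 the log2 fold change was -0.31, with an unadjusted p of 0.161 in the edgeR model.

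Eed in βEedKO islets of the same age was at 15.6 and 14.2 CPM, next to the heterozygous level. The direct difference between βEedKO and heterozygous islets was -0.16 on the log2 scale with SE 0.22. The count covers every exon of Eed, and islets hold cells in which the insulin promoter is silent, so the gene-level count checks the genotype labels only in part. At 8 weeks the order was the same, with heterozygous libraries at 17.2, 17.1 and 20.5 CPM, wild-type libraries at 23.9, 33.1 and 31.2 CPM and βEedKO libraries at 14.9, 13.4 and 14.8 CPM. The 8-week libraries share none with the 25-week ones, and their log2 fold change between heterozygous and wild type was -0.69 with SE 0.18 (adjusted p = 0.223, edgeR's quasi-likelihood test). The effect at 25 weeks minus that at 8 weeks was 0.21 with SE 0.27, so the ages did not differ beyond their errors. No gene was called (0%) for the difference between the ages, and none (0%) for heterozygous against wild type at 8 weeks, where 2743 genes had an unadjusted p under 0.05.

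Eed lies on chr7:89954654-89980983 of GRCm38, minus strand, and its start site carried state A in the chromatin segmentation of wild-type islets, an active state. Its promoter is shown because Eed is the gene the genotype alters. The sequence runs from 250 bases before to 50 after the RefSeq start, at chr7:89980927-89981226 of GRCm38.p6, read 5′ to 3′ on the minus strand with CpG dinucleotides in capitals.

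Eed promoter: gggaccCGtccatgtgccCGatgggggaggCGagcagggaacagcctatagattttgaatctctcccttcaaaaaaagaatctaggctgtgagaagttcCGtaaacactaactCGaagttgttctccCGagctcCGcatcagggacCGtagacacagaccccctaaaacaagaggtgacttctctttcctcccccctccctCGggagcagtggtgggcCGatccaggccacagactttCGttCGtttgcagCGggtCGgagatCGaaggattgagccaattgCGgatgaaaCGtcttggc

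It holds 17 CpG, a count below the median of 24 for promoters of that length among tested state A genes.

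The partners of Eed in PRC2 overlapped between heterozygous and wild-type islets. Ezh1, the methyltransferase of non-dividing cells, was at 70.1 and 58.3 CPM in heterozygous islets and at 52.3, 72.1 and 67.1 CPM in wild-type islets. Suz12, the scaffold subunit, was at 49.0 and 54.0 CPM against 52.8, 54.3 and 52.7 CPM. Ezh2, the methyltransferase of dividing cells, was at 4.03 and 3.79 CPM against 3.92, 4.51 and 4.41 CPM. For these 3 subunits the groups overlapped, and the log2 fold changes were 0.01 (SE 0.28) for Ezh1, -0.05 (SE 0.20) for Suz12 and -0.14 (SE 0.35) for Ezh2. The sign for Ezh1 and Suz12 turned under other scalings. Eed was the only core subunit of 4 (25%) whose libraries did not overlap, and it lay below, as did 7.06% of all genes.

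**Figure D1:**
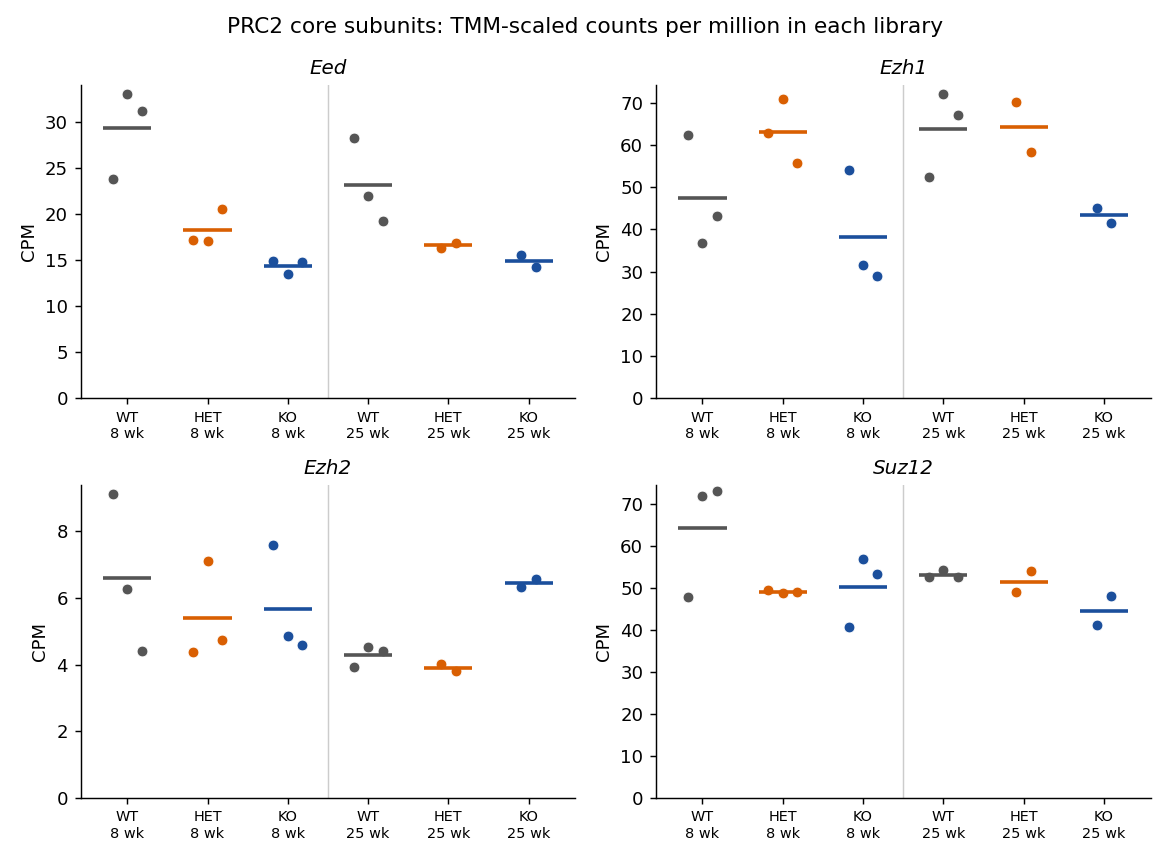
CPM of the 4 PRC2 core subunits by genotype and age (WT wild type, HET heterozygous, KO βEedKO), with 1 point per library and a line at the group mean. At 25 weeks Eed was at 16.3 and 16.9 CPM in heterozygous islets, below the 3 wild-type values and near the βEedKO values, while Suz12, Ezh1 and Ezh2 overlapped between heterozygous and wild type.

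No gene for a protein that accompanies or answers PRC2 passed the test. Of 8 PRC2 cofactors, 0 had an unadjusted p under 0.05. Rbbp4, a histone chaperone of the complex, was the single member whose libraries did not overlap, at 118 and 115 CPM against 102, 109 and 103 CPM. This is 12.5% of the list above, against 8.91% of all genes. Of 20 subunits of PRC1, the complex that ubiquitinates histone H2A and reads H3K27me3, 0 had an unadjusted p under 0.05. In that list 1 member (5%) had both heterozygous values above all wild-type values, against 8.91% of all genes. Of 13 trithorax methylase subunits and H3K27 demethylases, 0 passed the same limit, with a median log2 fold change of 0.22. That median rested on wild-type replicate 2, where the list summed to 601 CPM, against 1337 and 1305 CPM in wild-type replicates 3 and 4 and 1331 and 1235 CPM in heterozygous islets. Men1, the menin subunit of trithorax complexes, was at 33.5 and 39.8 CPM against 33.6, 32.2 and 33.3 CPM.

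Bivalent genes are the group in which a shortage of PRC2 would be looked for, and none of them was called in heterozygous islets. Start sites were assigned by the segmentation the authors deposited. The paper describes its states L and M as bivalent, with both H3K4me3 and H3K27me3. The tested genes include 2443 of 2906 counted genes in state L and 873 of 1515 in state M. Some of these passed the expression filter only through the βEedKO libraries, so the summaries describe the tested genes and not every bivalent gene.

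The median log2 fold change of heterozygous against wild type was -0.05 in state L, with quartiles of -0.44 and 0.21, and -0.29 in state M, with quartiles of -1.15 and 0.08. The median over all genes was 0, and in state A it was 0.04. Of state L genes, 219 (8.96%) had both heterozygous values above all wild-type values and 219 lay below, against backgrounds of 8.91% and 7.06%. Of state M genes, 44 (5.04%) lay above and 107 (12.3%) below. With L and M joined, 23 genes (0.694%) were higher and 53 (1.60%) lower at an unadjusted p under 0.05, against 0.388% and 0.728% of all genes, and 0 were called in edgeR's quasi-likelihood test. The median of state M depended on single libraries, moving to -0.49 without heterozygous replicate 1, to -0.08 without heterozygous replicate 2 and to -0.13 without wild-type replicate 2.

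In βEedKO islets, with the same wild-type libraries, the medians were 0.99 in state L and 2.10 in state M. There 436 of 2443 and 257 of 873 genes rose and 51 and 3 fell, against 5.91% and 3.08% of all genes. βEedKO was also compared directly with heterozygous islets, a contrast that holds no wild-type library, although these enter the estimate of the spread. It called 1574 genes (8.36%), of which 1018 (5.41%) were higher and 556 (2.95%) lower in βEedKO. Of the tested bivalent genes 666 (20.1%) were higher in βEedKO than in heterozygous islets and 58 were lower. Genes that passed the filter only through the βEedKO libraries raise the βEedKO medians and counts, and by how much was not tested.

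Counting detectable genes gave the same order without a fold change. Of state M genes, 328 and 273 reached 1 CPM in the heterozygous libraries, 407, 322 and 355 in the wild-type libraries and 720 and 744 in the βEedKO libraries. In state L the numbers were 1685 and 1643, then 1763, 1673 and 1750, then 2145 and 2201. The share of all counts on genes of both states was 5.98% and 5.26% in heterozygous islets, 5.84%, 5.89% and 6.65% in wild-type islets and 9.10% and 10.2% in βEedKO islets. By both measures the heterozygous libraries sat among or just under the wild-type libraries and outside the βEedKO range. The share is the weaker measure. At 8 weeks it was 7.53%, 7.31% and 8.16% in wild-type islets and 7.12%, 8.00% and 8.12% in βEedKO islets, which overlap. State M genes at 25 weeks summed to 80110 and 25320 CPM in βEedKO islets. In wild-type islets they summed to 28780, 19020 and 43360 CPM, so these overlap too. Acinar markers held 46.8% and 2.87% of the counts in the same βEedKO libraries. They held 13.4%, 5.02% and 27.6% in wild-type islets and 5.66% and 8.78% in heterozygous islets. Their part in the share and in these sums was not tested.

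Precision on bivalent genes was poorer than on active genes. The 95% interval stayed under a doubling for 42.3% of tested state L genes and 27.0% of tested state M genes, against 81.0% of state A genes. Among genes with a mean of at least 1 CPM the shares were 49.7%, 39.1% and 82.6%. For the remaining genes a rise of that size could not be seen or discounted at this depth and number of libraries.

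**Figure D2:**
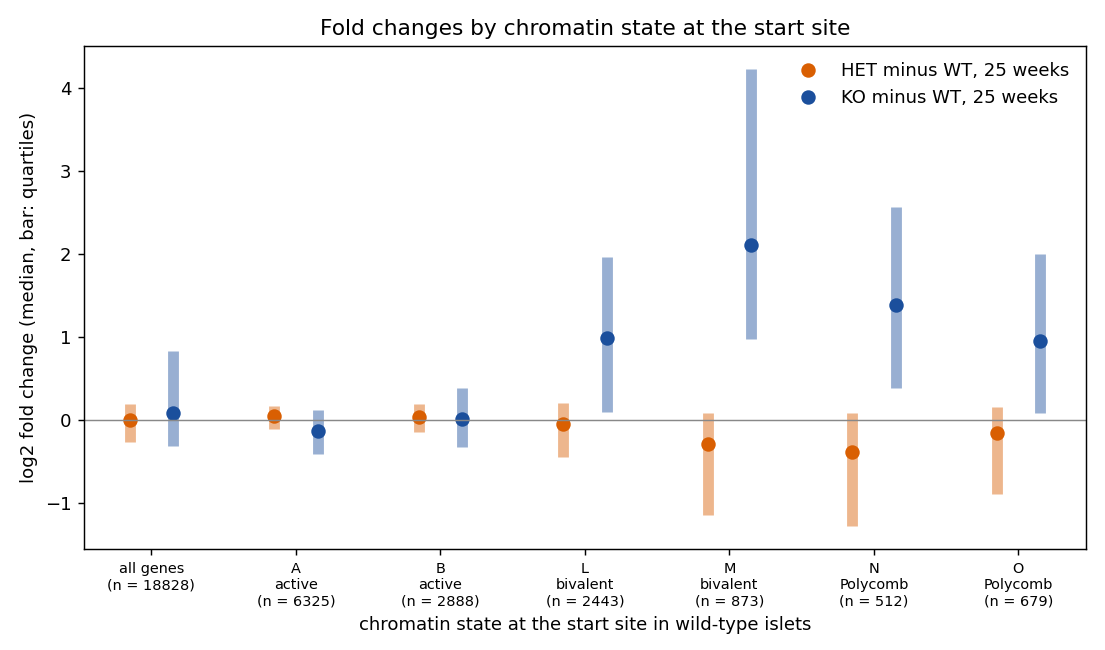
Median log2 fold change against wild type at 25 weeks (points) with its quartiles (bars) by chromatin state at the start site, for heterozygous (HET) and βEedKO (KO) islets, which share the wild-type libraries. Heterozygous medians are -0.05 in state L and -0.29 in state M, and those of βEedKO islets are 0.99 and 2.10. Some of the genes passed the expression filter only through the βEedKO libraries, which raises the βEedKO medians.

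Developmental transcription factors foreign to the adult islet were also read by name. Of 60 listed, 55 were tested, and 0 had an unadjusted p under 0.05 in heterozygous islets. That count says little, because the interval of the log2 fold change stayed under a doubling for only 7 of the 55 (12.7%). For the others, 12 of which had no interval, a rise of that size could not be seen or discounted. The summed level of the list was 91.1 and 70.5 CPM in heterozygous islets, 67.4, 80.8 and 86.6 CPM in wild-type islets and 608 and 722 CPM in βEedKO islets. Of the 55 tested genes, 36 rose and 1 fell in βEedKO islets, against 5.91% and 3.08% of all genes. Any that passed the expression filter only through the βEedKO libraries add to the 36, and by how much was not tested. The list had no reads in either heterozygous library for 19 genes, none in any wild-type library for 21 and none in the βEedKO libraries for 1. Msx1, a homeobox gene of limb and facial development, was at 1.85 and 1.46 CPM in heterozygous islets and 0.654, 0.527 and 1.24 CPM in wild-type islets, so the groups did not overlap. Its log2 fold change was 1.00 (SE 0.48), with an adjusted p of 1 in edgeR's quasi-likelihood test, and its level in βEedKO islets was 11.7 and 22.1 CPM. Foxd1, a forkhead gene of kidney stroma, had 1 read in each heterozygous library, none in wild type and 6.32 and 9.24 CPM in βEedKO islets. A single read per library is at the floor of detection and gives no fold change.

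No cell cycle inhibitor passed the test. Cdkn2a, the p16 and p19Arf locus that Polycomb is known to silence, was at 0.817 and 0.525 CPM in heterozygous islets, 0.654, 0.376 and 0.232 CPM in wild-type islets and 19.4 and 25.6 CPM in βEedKO islets. The heterozygous and wild-type values overlapped, with a log2 fold change of 0.82 (SE 0.48), whereas the βEedKO difference was 5.86 (adjusted p = 1.2e-05, edgeR's quasi-likelihood test). Of 7 inhibitors, 0 had an unadjusted p under 0.05 in heterozygous islets. Among 14 cell cycle genes, Ccnd1, which encodes cyclin D1, was at 73.4 and 104 CPM against 57.6, 69.5 and 71.7 CPM, with a log2 fold change of 0.42 (SE 0.19) that did not pass adjustment and was 0.15 without heterozygous replicate 2 and 0.65 without heterozygous replicate 1. Mki67, a proliferation marker, was at 3.60 and 7.47 CPM against 4.80, 3.54 and 3.71 CPM.

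Genes called in βEedKO islets at 8 weeks were then followed. At that age 118 genes (0.627%) were called between βEedKO and wild-type islets, 109 of them higher, in libraries separate from those compared here. These 109 genes had a median log2 fold change of 0.06 in heterozygous islets at 25 weeks, and 17 (15.6%) had both heterozygous values above all wild-type values while 6 (5.5%) had both below, beside the backgrounds of 8.91% and 7.06%. At an unadjusted p under 0.05, 8 (7.34%) were higher and 2 (1.83%) lower, against 0.388% and 0.728% of all genes. The 8-week and 25-week tests come from 1 fit and share each gene's estimate of the spread, and the part of this in the 7.34% was not tested. The higher genes were Qpct, Kndc1, Spock1, Klhl29, Sdc3, E030030I06Rik, Susd4 and Vopp1, and the lower ones Rspo1 and Cacng2, named after their values were seen. Kndc1, in state L, was at 5.72 and 7.47 CPM in heterozygous islets, 3.05, 3.54 and 4.10 CPM in wild-type islets and 24.4 and 35.5 CPM in βEedKO islets. All 10 had an adjusted p of 1 in edgeR's quasi-likelihood test. Of the 109 genes, 84 were in state L or M. At an unadjusted p under 0.05, 4 of these 84 (4.76%) were higher and 2 (2.38%) lower in heterozygous islets. The shares over all tested bivalent genes were 0.694% and 1.60%, so the higher genes were not mainly bivalent. The median of the 109 genes in βEedKO islets at 25 weeks was 3.12, and 85 of 109 rose there, against 5.91% of all genes. Without single libraries the heterozygous median ranged from -0.10 to 0.18.

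Cartpt, which encodes a secreted neuropeptide, was at 1.85 and 1.52 CPM in heterozygous islets, 1.53, 1.28 and 0.619 CPM in wild-type islets and 89.1 and 118 CPM in βEedKO islets. Igf2, an imprinted growth factor, was at 14.5 and 8.69 CPM, then 14.6, 9.86 and 9.75 CPM, then 91.8 and 102 CPM. Both overlapped between heterozygous and wild type. Qpct, the enzyme that forms pyroglutamate at peptide ends, was at 2.83 and 3.44 CPM against 2.40, 1.73 and 1.08 CPM, apart from wild type but far below the 29.9 and 33.0 CPM of βEedKO islets. At 8 weeks Qpct went the other way, at 3.34, 2.79 and 4.13 CPM in heterozygous islets against 5.52, 7.38 and 5.98 CPM in wild-type islets. Astn1, a neuronal adhesion gene in state M, was at 5.67 and 1.69 CPM against 2.40, 3.69 and 2.55 CPM, with 47.0 and 48.0 CPM in βEedKO islets.

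**Figure D3:**
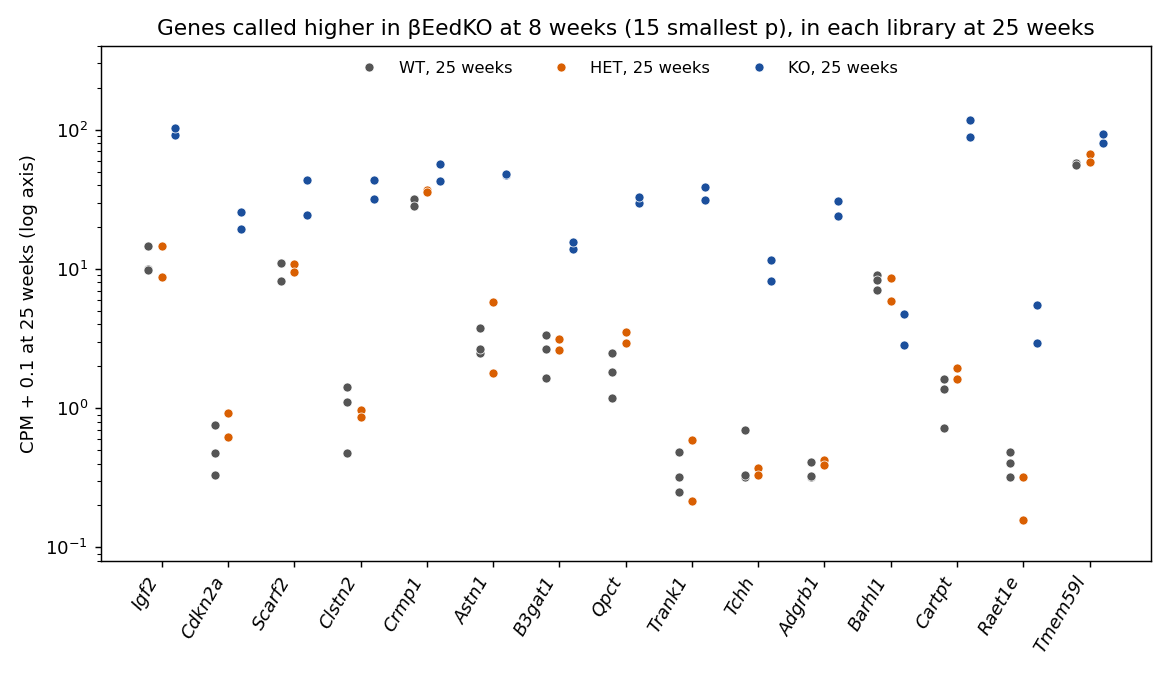
CPM + 0.1, on a log axis, of the 15 genes with the smallest p among those higher in βEedKO islets at 8 weeks, in each wild-type (WT), heterozygous (HET) and βEedKO (KO) library at 25 weeks. Cartpt is between 0.619 and 1.85 CPM in the wild-type and heterozygous libraries and at 89.1 and 118 CPM in βEedKO, and Barhl1 is the exception in which βEedKO lies lowest.

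The promoter of Astn1 is shown as a bivalent start site in state M, at chr1:158362054-158362353 of GRCm38.p6, plus strand, with CpG dinucleotides in capitals.

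Astn1 promoter: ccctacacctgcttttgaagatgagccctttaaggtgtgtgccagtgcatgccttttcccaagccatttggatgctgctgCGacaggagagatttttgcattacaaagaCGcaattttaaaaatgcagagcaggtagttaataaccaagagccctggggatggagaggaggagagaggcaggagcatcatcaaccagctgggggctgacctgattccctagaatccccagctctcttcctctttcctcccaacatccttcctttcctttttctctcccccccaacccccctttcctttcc

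It holds 2 CpG, where the median over the tested state M promoters with a RefSeq sequence was 12 and that over state L promoters 17.

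No β cell identity gene passed the test. Of 8 mature β cell transcription and maturity factors, 0 had an unadjusted p under 0.05 in heterozygous islets. None had libraries apart, against 8.91% above and 7.06% below over all genes. Their median log2 fold change was -0.08. In βEedKO islets 7 of the 8 fell, against 3.08% of all genes. Pdx1, the transcription factor that maintains the β cell, was at 82.0 and 102 CPM against 124, 112 and 97.9 CPM. Ucn3, a peptide of mature β cells, was at 352 and 474 CPM against 447, 399 and 346 CPM and at 11.4 and 10.1 CPM in βEedKO islets. The log2 fold changes in heterozygous islets were -0.27 (SE 0.30) for Pdx1 and 0.05 (SE 0.28) for Ucn3.

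Of 26 genes of insulin production and secretion, 0 had an unadjusted p under 0.05 in heterozygous islets. In βEedKO islets 13 fell and 1 rose, against 3.08% and 5.91% of all genes. Ins1 and Ins2, the insulin genes, had log2 fold changes of 0.14 (SE 0.52) and 0.16 (SE 0.68), against -3.79 and -3.36 in βEedKO islets. The list summed to 184400 and 230000 CPM in heterozygous and 244400, 180600 and 144400 CPM in wild-type islets, which overlap.

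Genes that β cells normally keep silent, the disallowed genes, had no higher member. All 14 were tested, and 0 had a higher mean in heterozygous islets, with a median log2 fold change of -0.63 and 4 (28.6%) with both heterozygous values below all wild-type values, against the background of 7.06%. Cxcl12, a chemokine, was at 5.94 and 3.79 CPM against 10.9, 8.73 and 13.1 CPM, and Rest, the repressor of neuronal genes, was at 2.29 and 2.39 CPM against 3.27, 3.39 and 5.88 CPM. Neither passed the test. Markers of other cells differed between the same libraries. Acinar markers summed to 50690 and 86090 CPM in heterozygous islets and 135600, 44780 and 320400 CPM in wild-type islets, with a list median of -1.33, and Dcn, a stromal proteoglycan, was at 14.2 and 2.57 CPM against 51.5, 19.3 and 24.1 CPM. Their part in the lower disallowed genes was not tested.

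Dedifferentiation markers were mixed. Of 10 tested, 1 was lower at an unadjusted p under 0.05, Sox17, an endoderm factor also expressed in vessels, at 1.14 and 0.583 CPM against 3.49, 1.96 and 1.01 CPM. Aldh1a3, an enzyme of dedifferentiated β cells, was at 2.40 in one heterozygous library and 17.6 CPM in the other, against 5.01, 5.49 and 4.10 CPM in wild type and 13.01 and 28.2 CPM in βEedKO islets, so the heterozygous libraries disagreed in direction. The other islet hormone genes had a median of -0.39. Sst, somatostatin of delta cells, was at 1114 and 758 CPM against 2013, 1276 and 1109 CPM, and Hhex, the delta cell factor, at 6.86 and 3.44 CPM against 13.1, 8.73 and 9.44 CPM.

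Non-endocrine markers differed between libraries in amounts that bear on small genotype differences. Lymphocyte markers summed to 31.6 and 21.1 CPM in heterozygous islets and 499, 79.3 and 72.9 CPM in wild-type islets. Their list median was -2.14, and 4 of 11 members (36.4%) lay below, against 7.06% of all genes. Igkc, the immunoglobulin kappa constant gene, was at 2.83 and 0.583 CPM against 251, 22.0 and 16.2 CPM. Macrophage markers summed to 387 and 270 CPM against 559, 325 and 325 CPM. Endothelial markers summed to 677 and 690 CPM against 548, 579 and 562 CPM. Of these 11, 4 (36.4%) lay above, against 8.91% of all genes. Plvap, a protein of fenestrated capillaries, was at 133 and 130 CPM against 103, 100 and 102 CPM, with a log2 fold change of 0.36 that did not pass the test. Genes of the unfolded protein response summed to 8160 and 7981 CPM against 4182, 8081 and 7968 CPM, where the low value is again wild-type replicate 2.

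**Figure D4:**
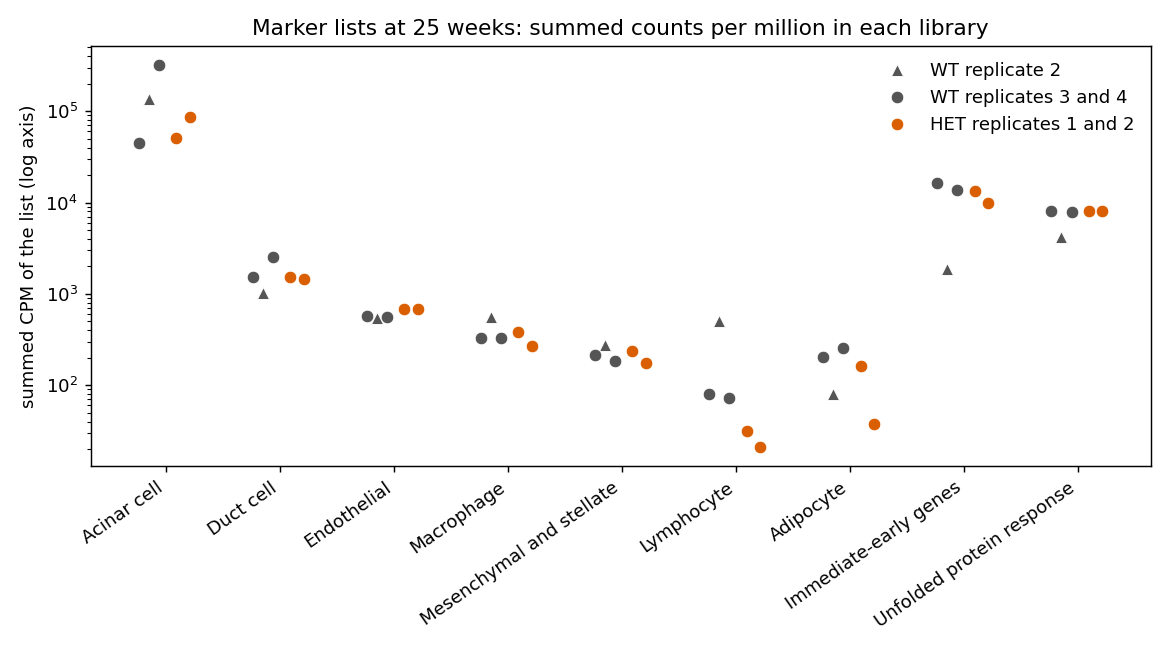
Summed CPM of marker and response lists in each wild-type and heterozygous library at 25 weeks, on a log axis, with 1 point per library. Wild-type replicate 2 is the low point for immediate-early and unfolded protein response genes and the high point for lymphocyte markers, and the heterozygous libraries sit below all wild-type libraries for lymphocyte markers.

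Rab39 had the smallest unadjusted p among higher genes that reached 1 CPM and whose libraries did not overlap. It encodes a small GTPase of vesicle traffic and lies on chr9:53684110-53706232 of GRCm38, minus strand, with the active state A at its start site. Its level was 14.8 and 13.6 CPM in heterozygous islets and 3.92, 2.33 and 1.47 CPM in wild-type islets. The groups were far apart, with a log2 fold change of 2.51 (SE 0.58) and a 95% interval of 1.26 to 3.76, which is 5.70-fold. It was not called by edgeR's quasi-likelihood test (adjusted p = 1, unadjusted p = 0.000789), and limma voom with sample weights called it.

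The same elevation was present at 8 weeks, in other libraries. Rab39 was at 12.9, 14.3 and 15.1 CPM in heterozygous islets and 2.92, 2.03 and 1.43 CPM in wild-type islets, a log2 fold change of 2.73 (SE 0.54, adjusted p = 0.212 in the same edgeR model). All 5 heterozygous libraries lay above all 6 wild-type libraries, as they did for 90 genes of 18828, with 59 genes below. Rab39 in βEedKO islets at 25 weeks was at 3.58 and 1.98 CPM, near wild type. βEedKO was lower than heterozygous islets by 2.36 (SE 0.65) on the log2 scale (adjusted p = 0.0405, edgeR's quasi-likelihood test). Rab39 was named for its high values in these same heterozygous libraries, so that contrast is not a separate test. At 8 weeks βEedKO islets were at 9.39, 2.56 and 2.16 CPM. At both ages the heterozygous libraries held the highest values of the 3 genotypes. The effects at the 2 ages differed by -0.22 (SE 0.78), and without wild-type replicate 2 the 25-week value was 2.89.

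**Figure D5:**
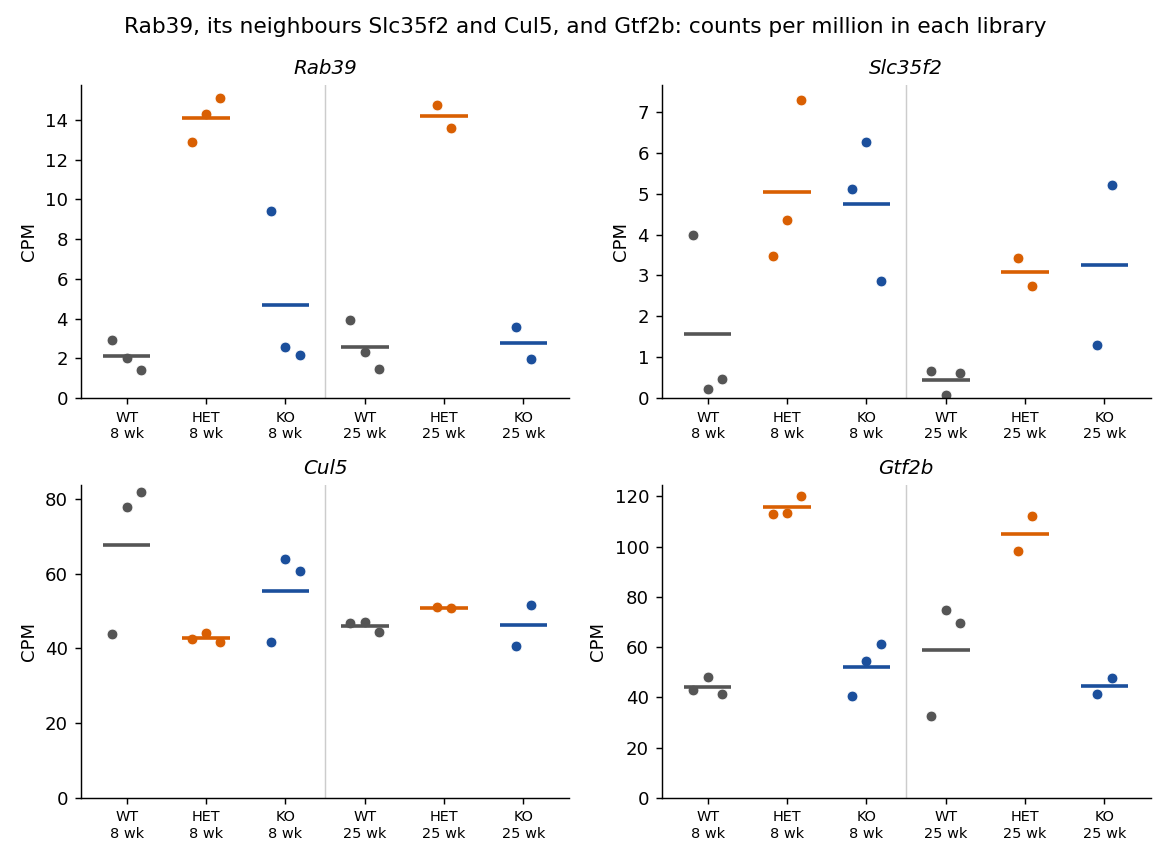
CPM of Rab39, its neighbours Slc35f2 and Cul5, and Gtf2b in all 16 libraries by genotype and age (WT wild type, HET heterozygous, KO βEedKO), with 1 point per library and a line at the group mean. For Rab39 the 5 heterozygous libraries sit between 12.9 and 15.1 CPM and the 6 wild-type libraries between 1.43 and 3.92 CPM, and 1 βEedKO library at 8 weeks is at 9.39 CPM.

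The neighbours of Rab39 were examined after its values were seen. Slc35f2, a transporter gene 65306 bp away at chr9:53771538-53818154 on the plus strand and in bivalent state L, was at 3.43 and 2.74 CPM in heterozygous islets and 0.654, 0.0752 and 0.619 CPM in wild-type islets. These groups did not overlap (log2 fold change 2.87, SE 1.07, unadjusted p = 0.0185 in the edgeR model), but at 8 weeks 1 wild-type library reached 4.00 CPM beside heterozygous libraries at 3.48, 4.35 and 7.30 CPM. Cul5, a ubiquitin ligase scaffold 14096 bp from Rab39, was at 51.0 and 50.8 CPM against 46.7, 47.1 and 44.3 CPM, and Gm16124, an antisense RNA gene 2845 bp away, was at 2.34 and 2.98 CPM against 4.80, 2.41 and 2.86 CPM. The library kit does not mark strand, so reads of Gm16124 and of a gene on the other strand cannot be told apart where they overlap.

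The promoters of Rab39 and Slc35f2 are shown as the active and the bivalent start site of this stretch, at chr9:53706183-53706482 on the minus strand and chr9:53771285-53771584 on the plus strand of GRCm38.p6, with CpG dinucleotides in capitals.

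Rab39 promoter: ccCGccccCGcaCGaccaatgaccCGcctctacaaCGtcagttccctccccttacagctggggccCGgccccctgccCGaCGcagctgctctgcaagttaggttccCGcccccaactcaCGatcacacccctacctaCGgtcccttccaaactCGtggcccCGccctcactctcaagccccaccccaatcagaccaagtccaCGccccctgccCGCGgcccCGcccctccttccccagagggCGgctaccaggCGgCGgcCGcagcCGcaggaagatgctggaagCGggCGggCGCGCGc

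Slc35f2 promoter: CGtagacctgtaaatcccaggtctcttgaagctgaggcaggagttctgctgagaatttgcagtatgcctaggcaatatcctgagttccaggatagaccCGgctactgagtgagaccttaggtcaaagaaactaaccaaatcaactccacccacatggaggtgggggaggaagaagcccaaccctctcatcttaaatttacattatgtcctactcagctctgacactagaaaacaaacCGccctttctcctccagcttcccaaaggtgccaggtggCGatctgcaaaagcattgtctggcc

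The first holds 27 CpG and the second 4, with medians of 24 in state A and 17 in state L.

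Gtf2b, the general transcription factor TFIIB, was named after its values were seen. It was at 98.3 and 112 CPM in heterozygous islets and 32.5, 74.7 and 69.8 CPM in wild-type islets at 25 weeks, and at 113, 114 and 120 CPM against 42.9, 48.2 and 41.4 CPM at 8 weeks. The groups did not overlap at either age, and βEedKO islets at 25 weeks were at 41.2 and 47.9 CPM. The log2 fold change at 25 weeks was 0.83 (SE 0.28, adjusted p = 1, edgeR's quasi-likelihood test), and 0.54 without wild-type replicate 2. The immediate-early gene Fosb also differed between these libraries. At 25 weeks it was at 3807 and 3052 CPM in heterozygous islets and 198, 4189 and 3921 CPM in wild-type islets. At 8 weeks it was at 3678, 2125 and 2597 CPM against 1212, 62.0 and 83.9 CPM. In βEedKO islets at 25 weeks Fosb was at 182 and 340 CPM. Its relation to the Gtf2b values was not tested.

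The rule named 4 more higher genes over all genes. Clca3a1, a secreted chloride channel regulator, was at 3.43 and 2.57 CPM against 0.436, 0.677 and 0.387 CPM. Tnc, the matrix protein tenascin C in state M, was at 10.6 and 3.73 CPM against 0.654, 0.978 and 0.619 CPM, with a log2 fold change of 3.22 (SE 0.99). Rasl10b, a Ras-like GTPase gene, was at 4.47 and 15.0 CPM against 3.49, 3.84 and 3.40 CPM, and reached 26.5 and 36.8 CPM in βEedKO islets. Its log2 fold change of 1.44 was 0.33 without heterozygous replicate 2. Cngb3, a photoreceptor channel subunit, was at 0.654 and 1.63 CPM against 0, 0.150 and 0.155 CPM. None of these passed adjustment, and except for Rasl10b none was called in βEedKO islets. At 8 weeks the log2 fold changes were -0.22 for Clca3a1, 0.37 for Tnc, -0.02 for Rasl10b and -0.68 for Cngb3.

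On the lower side were 2 immunoglobulin genes, a processed pseudogene, an unnamed transcript and Slpi, a protease inhibitor of secretory epithelia. Igkv4-70 was at 0.0545 and 0 CPM against 1.31, 2.33 and 2.63 CPM. Ighg2c was at 0 and 0.0583 CPM against 32.7, 8.80 and 1.62 CPM. The pseudogene Gm10020 was at 0.0545 and 0.0583 CPM against 1.31, 1.73 and 1.47 CPM. Immunoglobulin and pseudogene reads can be split among near-identical copies, so these values are uncertain, and immunoglobulin genes moved with the summed lymphocyte markers, whose part was not tested. Slpi, in state M, was at 0.109 and 0 CPM against 4.80, 0.903 and 0.542 CPM.

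Among bivalent genes the rule also named Dync1i1, a neuronal dynein chain in state L, at 3.65 and 5.19 CPM against 2.62, 2.56 and 2.24 CPM and at 11.1 and 10.4 CPM in βEedKO islets. Its log2 fold change was 0.84 (SE 0.31) in heterozygous islets at 25 weeks and -0.74 at 8 weeks, so the ages gave opposite signs. Gm12166 and Tescl were higher with log2 fold changes of 1.47 and 2.11. Fbln1, an extracellular matrix gene, was lower, at 0.218 and 0.0583 CPM against 2.40, 1.28 and 1.62 CPM and at 6.85 and 5.81 CPM in βEedKO islets. 2610035D17Rik, 4930452B06Rik and Zfp991 had log2 fold changes of -1.32, -1.48 and -1.30. At 8 weeks the values of Gm12166, 4930452B06Rik and Zfp991 had the opposite sign, at -0.82, 1.00 and 0.43. The value of 2610035D17Rik was -0.74 without heterozygous replicate 1 and -2.27 without heterozygous replicate 2, and that of Dync1i1 was 1.08 and 0.57. All 10 genes named by this rule among bivalent genes had an adjusted p of 1 in edgeR's quasi-likelihood test.

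Genes with an unadjusted p under 0.05 at both ages numbered 28, which is 13.3% of the 210 at 25 weeks and 1.02% of the 2743 at 8 weeks, where 14.6% of all genes had such a p. Of these 28, 20 had the same direction at both ages and 8 the opposite.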

How the data were processed

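Islet RNA was sequenced from TruSeq RNA v2 libraries. The authors deposited raw read counts per gene, made on GRCm38 with TopHat2 2.0.13 and featureCounts of Subread 1.5.0-p1, versions as in the submitters' processing notes, and Gencode M9 models. The authors also deposited EpicSeg state letters in bins of 200 bp for wild-type islets. Other data types were not analysed here. Whether the counting used strand is not stated.

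Counts of 16 libraries in 6 groups were fitted in R 4.3.3 with edgeR 4.0.16 (TMM, filterByExpr, quasi-likelihood test). The standard error is the absolute log2 fold change over the square root of F. limma 3.58.1 and DESeq2 1.42.0 were alternatives. The common biological coefficient of variation was 0.424. Count columns not used numbered 0. Of 47937 counted genes, 47310 matched the annotation used for positions and states, a later release than that counted on. Promoters come from RefSeq. Statistics were tested on simulated data.

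Named genes are Eed, the genes with the smallest unadjusted p that reached 1 CPM in a group and had heterozygous libraries on one side of every wild-type library (5 in each direction, over all genes and over bivalent genes), and list members by unadjusted p and level. The gene lists and members were chosen with earlier results of these data known. Genes chosen after their values were seen are named as such.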

Additional observations from a re-analysis of the deposited data

How the results depend on the processing

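At 25 weeks 0 genes were called under another scaling, without a filter, in a fit of the 5 libraries or of the 11 wild-type and heterozygous libraries, and without any single library. DESeq2 called 3 (Gsta1, Gm12976, Amy2a4), and limma voom with sample weights, chosen after seeing the data, called 5 (Rab39 at 2.87, Clca3a1 at 2.45, Igkv4-70 at -5.64, Ighv1-80, Ighv1-50). The voom fit gave wild-type replicate 2 at 25 weeks a weight of 0.429, against 2.06 to 2.81 for the other wild-type and heterozygous libraries of that age. Other libraries also had low weights. At 8 weeks they were 0.159 for βEedKO replicate 1, 0.248 for wild-type replicate 1 and 0.549 for heterozygous replicate 2. The βEedKO libraries at 25 weeks had 0.57 and 0.639. The difference between the ages had 1261 calls with voom and 0 otherwise. Heterozygous against wild type at 8 weeks had 5 calls without a filter, 407 with DESeq2, 4208 with voom and 0 to 19 when single libraries were left out, with 19 without wild-type replicate 2 at 25 weeks. Averaged over both ages, calls were 2 without a filter, 38 with DESeq2, 1719 with voom and 1, Rab39, with 11 libraries. Library size alone moved the median of all genes to 0.11, that of state L to 0.056, of state M to -0.16 and of the genes called at 8 weeks in βEedKO to 0.16. Without a filter the medians were -0.0060 for state L and 0 for state M, and with states over the gene body they were -0.12 and -0.11. State M was at -0.42 both with voom and with 11 libraries. Single libraries left out gave -0.097 to -0.010 for state L, -0.49 to -0.084 for state M and -0.10 to 0.18 for the genes called at 8 weeks. Of 774 recomputed values of 65 genes, 753 kept direction and side, 3 passed the threshold and 18 changed sign: Ezh1 was at -0.0091 with DESeq2 size factors, -0.011 with its Wald test, -0.013 with 5 libraries and -0.096 with voom, and Suz12 at 0.056 with library size alone. Ranges without single libraries that crossed zero were -0.13 to 0.14 for Ezh1, -0.11 to 0.026 for Suz12, -0.35 to 3.43 for Prss1, -0.17 to 0.26 for Ucn3, -0.052 to 0.40 for Ins1, -0.041 to 0.37 for Ins2, -0.65 to 0.26 for Gcg, -0.14 to 0.92 for Mki67 and -1.01 to 1.86 for Aldh1a3. The causes were not tested. No paired analysis was possible because the wild-type and heterozygous libraries at 25 weeks share only replicate number 2. Depth limits low genes most.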

Other observations

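Gm12976, a long intergenic RNA gene on chromosome 4, was at 1.14 and 1382 CPM in the 2 heterozygous libraries at 25 weeks and at 248, 0.932 and 10373 CPM in the 3 heterozygous libraries at 8 weeks. In the 11 other libraries it was between 0.654 and 2.51 CPM. It was high in 3 of 5 heterozygous libraries and in none of the others, and DESeq2 was the only test that called it at 25 weeks.

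Between the heterozygous libraries at 25 weeks, 98.1% of genes agreed within 2-fold on CPM + 1, with 121 genes more than 2-fold higher and 244 more than 2-fold lower in replicate 2. Lists whose medians are not given above had median log2 fold changes of -0.23 for duct, -0.84 for adipocyte, -0.30 for macrophage, -0.15 for mesenchymal, -0.07 for interferon-induced, 0.06 for immediate-early and -0.05 for glycolysis genes.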
